A study of Rattus norvegicus with 9 samples.

Results

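Collagen genes were followed in cultured heart cells of newborn rats in which Yap1, a transcriptional coactivator restrained by the Hippo pathway, had been raised or lowered. A row of the deposited gene table was counted as a collagen when its symbol was Col, then a type number, the letter a and a chain number. The rule took 42 of 18629 rows, of which 11 encode fibrillar chains, 9 encode network chains and 22 encode other types. Enough reads for a test were present for 34 of the 42, namely 10 fibrillar, 8 network and 16 other chains.

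The groups were Yap1 WT (adenovirus Ad-Yap1 WT), Yap1 shRNA (adenovirus with a short hairpin RNA against Yap1) and GFP (Ad-GFP, the control), with 3 libraries each. Every library came from primary neonatal rat cardiomyocytes of SD rats aged 1 to 2 days, and every group had received 33 mM glucose with 100 nM insulin for 48 h. GFP cells were therefore under the same high glucose and insulin as the others, and GFP cells without that treatment were not analysed here. The hearts had been digested with a collagenase, and the cells were plated in 10% serum then held for 14 h in low-glucose medium (1 g/L) with 1% serum. No group carried a control hairpin. The labels do not say whether replicates were separate isolations, so a p-value measures only the spread between these samples, which may be technical.

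Collagens are secreted proteins built from alpha chains that wind round each other into a long helix. Fibrillar types, led by types I and III in the heart, pack into the tensile fibrils of the interstitial matrix. Type IV is the network collagen of basement membranes, the thin sheets that surround each cardiomyocyte. The remaining types coat fibrils, form beaded filaments, anchor basement membranes, carry heparan or chondroitin sulfate, or span the plasma membrane. In the heart, fibroblasts and smooth muscle cells are the main makers of the fibrillar types.

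Assigned reads per library ranged from 10960051 to 11497104 in Yap1 WT, from 6103221 to 6357403 in Yap1 shRNA and from 14868180 to 15368473 in GFP. Levels below are read counts scaled to library size with TMM factors (CPM), unless the deposited per-length values (TPM) are named. Yap1 had 558, 811 and 621 CPM in Yap1 WT, 95.3, 95.9 and 95.3 CPM in Yap1 shRNA, and 197, 197 and 190 CPM in GFP, as the labels require. All 8 cardiomyocyte markers examined were present in every group. Their summed level was 3140 to 4733 CPM in Yap1 WT and 1417 to 1496 CPM in Yap1 shRNA, against 16740 to 17105 CPM in GFP. Fibroblast markers other than collagens were present too, at a summed 558 to 654 CPM in Yap1 WT and 375 to 418 CPM in Yap1 shRNA, against 629 to 641 CPM in GFP. In such bulk samples, fewer cells of a type and less RNA per cell cannot be told apart.

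Most collagen genes were lower than in GFP in both Yap1 groups. In Yap1 WT cells, 21 of the 34 tested chains were lower, 3 were higher and 10 were not called. Over all 13708 genes tested, 31.8% were called lower and 32.0% higher in that comparison, and 63.8% in either direction. The median collagen log2 fold change was -0.54, against 0.00 over all tested genes. In Yap1 shRNA cells, 26 chains were lower, 3 were higher and 5 were not called, where 39.1% of all genes were called lower, 39.2% higher and 78.3% in either direction. The median was -1.04, against -0.01 over all tested genes. Both comparisons share the GFP libraries.

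Compared directly, Yap1 WT cells had more collagen mRNA than Yap1 shRNA cells. Of the 34 chains, 21 were higher, 4 were lower and 9 were not called, where 31.2% of all tested genes were called higher, 31.3% lower and 62.5% in either direction. The median log2 fold change was 0.55, against 0.04 over all tested genes. A gene was called at an adjusted p under 0.05 from edgeR's quasi-likelihood test, with Benjamini-Hochberg adjustment over all 13708 genes, and adjusted p-values below come from that test.

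Groups did not overlap for 23 chains between Yap1 WT and GFP (70.7% of all tested genes), for 30 between Yap1 shRNA and GFP (80.2%), and for 24 between Yap1 WT and Yap1 shRNA (66.1%). Of the tested chains, 3 (Col13a1, Col19a1 and Col22a1) had 10 reads in every library of GFP alone. Another 7 had 10 in every library of Yap1 WT and GFP but not of Yap1 shRNA. The read filter asked for 10 reads at the median library size in any 3 libraries, so fewer sufficed in the smaller Yap1 shRNA libraries. Passing it rested on GFP for Col13a1 and Col19a1, while Col22a1, Col6a6 and Col8a2 met it in every Yap1 shRNA library. Among the 20 chains that averaged at least 20 CPM over all 9 libraries, 14 were lower and 1 was higher in Yap1 WT than in GFP. In Yap1 shRNA, 19 of these 20 were lower and 1 was higher than in GFP. That average takes in the GFP libraries, and Col4a3 reached 20 CPM through them. The authors' deposited table, at a q-value under 0.05, has 21 lower and 4 higher of the 34 for Yap1 WT against GFP, 25 lower and 3 higher for Yap1 shRNA against GFP, and 18 higher and 4 lower for Yap1 WT against Yap1 shRNA.

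**Figure D1:**
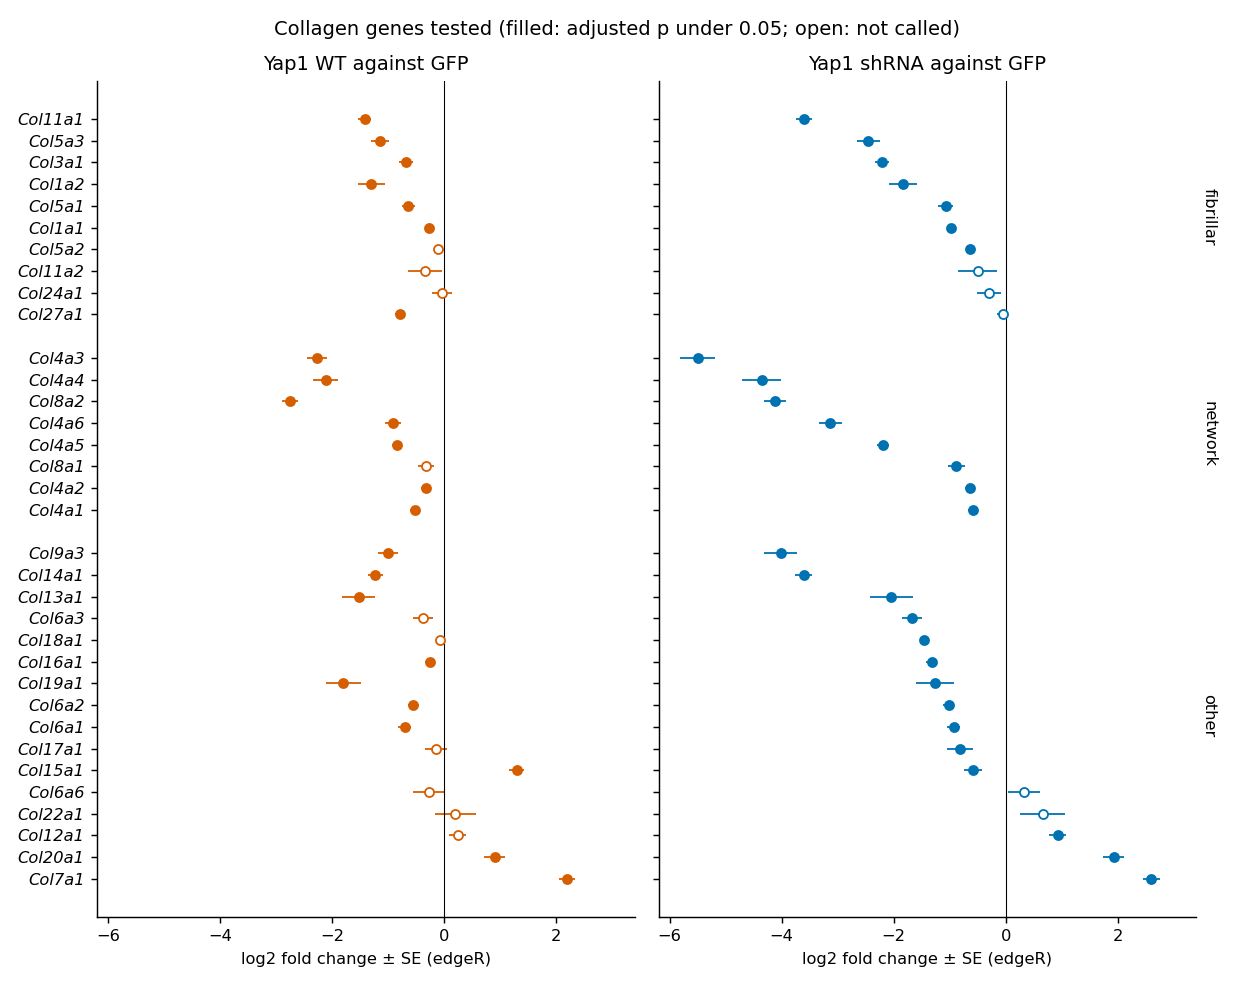
Log2 fold change ± SE from edgeR (x axis) of the 34 tested collagen genes (rows, by class and by the Yap1 shRNA value) in Yap1 WT against GFP (left) and Yap1 shRNA against GFP (right). Filled points had an adjusted p under 0.05, and the points spread from -2.76 to 2.19 on the left and from -5.50 to 2.60 on the right, with 21 and 26 called chains left of 0.

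The fibrillar collagens fell in both Yap1 groups. Of 10 tested chains, 7 were lower and none was higher in Yap1 WT than in GFP (median log2 fold change -0.66), and 7 were lower and none was higher in Yap1 shRNA than in GFP (median -1.02). Over all tested genes, 31.8% were lower and 63.8% called in Yap1 WT, and 39.1% were lower and 78.3% called in Yap1 shRNA. The share of fibrillar chains called is near that of all genes, and every chain called against GFP was lower. Among the 7 that averaged at least 20 CPM, 6 were lower in Yap1 WT (median -0.68) and 7 in Yap1 shRNA (median -1.84). Between Yap1 WT and Yap1 shRNA, 6 of the 10 were higher, 1 was lower and 3 were not called (median 0.52). There 31.2% of all tested genes were higher and 62.5% called.

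Col1a1 encodes the major chain of type I collagen, the chief component of tensile fibrils, and was the most highly expressed collagen. It had 11756, 9097 and 10305 CPM in Yap1 WT and 6263, 6703 and 6167 CPM in Yap1 shRNA, against 13012, 12005 and 12567 CPM in GFP. The 3 groups did not overlap, and the log2 fold change was -0.27 ± 0.08 (SE) in Yap1 WT (adjusted p = 0.0115) and -0.97 ± 0.08 in Yap1 shRNA (adjusted p = 1.62e-07) against GFP. The Yap1 WT call was lost with library size as the only scaling (log2 fold change -0.14) and on TPM (-0.12). Yap1 WT exceeded Yap1 shRNA by 0.70 ± 0.08 on the log2 scale (adjusted p = 8.84e-06).

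Col3a1, whose type III fibrils run with type I in distensible tissue, fell further. It had 3999, 2548 and 3260 CPM in Yap1 WT and 1143, 1154 and 1084 CPM in Yap1 shRNA, against 5557, 5061 and 5051 CPM in GFP. All groups were apart, Yap1 shRNA lowest, with a log2 fold change of -0.68 ± 0.12 in Yap1 WT (adjusted p = 0.000277) and -2.21 ± 0.13 in Yap1 shRNA (adjusted p = 2.69e-09). In TPM, a scale per transcript length, Col3a1 stood at 0.386 ± 0.0374 times Col1a1 in Yap1 WT and 0.218 ± 0.00642 times in Yap1 shRNA, against 0.515 ± 0.0164 times in GFP (SD, n = 3). Their ratio thus differed between groups by more than the spread of replicates.

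Type V collagen nucleates and limits the width of type I fibrils. Col5a1 had 1162, 786 and 961 CPM in Yap1 WT and 816, 720 and 629 CPM in Yap1 shRNA, against 1641, 1451 and 1447 CPM in GFP. It was lower in both (log2 fold change -0.64 and -1.07), and the 2 Yap1 groups overlapped. Col5a2 had 1104, 915 and 970 CPM in Yap1 WT and 738, 677 and 676 CPM in Yap1 shRNA, against 1146, 1043 and 1067 CPM in GFP. Yap1 WT overlapped GFP for this chain (log2 fold change -0.12 ± 0.07, adjusted p = 0.149, and -0.20, adjusted p = 0.0144, without Yap1 WT replicate 1), while Yap1 shRNA was lower (-0.64 ± 0.07). Col5a3, the minor chain of type V, had 83.8, 42.3 and 59.9 CPM in Yap1 WT and 25.1, 25.8 and 24.5 CPM in Yap1 shRNA, against 150, 130 and 132 CPM in GFP. Its 3 groups were apart, at log2 fold changes of -1.15 ± 0.16 and -2.45 ± 0.20 against GFP.

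Col11a1 encodes a chain of type XI collagen, the type V relative best known from cartilage fibrils. It had 130, 82.6 and 95.2 CPM in Yap1 WT and 20.6, 25.6 and 21.9 CPM in Yap1 shRNA, against 283, 269 and 271 CPM in GFP. No library of one group reached another group, and the log2 fold change was -1.42 ± 0.12 in Yap1 WT (adjusted p = 4.64e-07) and -3.60 ± 0.15 in Yap1 shRNA (adjusted p = 2.22e-10). This was the widest fall of any fibrillar chain in Yap1 shRNA, to 8.27% of the GFP level.

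Among the scarcer fibrillar chains, Col27a1, known from cartilage, averaged 10.7 ± 0.599 CPM in Yap1 WT and 17.8 ± 1.45 CPM in Yap1 shRNA, against 18.5 ± 0.983 CPM in GFP. It was the fibrillar chain called lower in Yap1 WT than in Yap1 shRNA (log2 fold change -0.75 ± 0.10, adjusted p = 3.66e-05). Col11a2 and Col24a1 stayed between 0.805 and 3.92 CPM in all libraries and were called in no comparison. Col2a1, the main cartilage chain, had 3 reads in Yap1 WT, 12 in Yap1 shRNA and 13 in GFP and was not tested.

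Col1a2, the second chain of type I collagen, was split over 2 rows of the table. Its own row (chromosome 4, 31534225 to 31569152, plus strand, in the table's coordinates, for which the submitters' notes name build rn6) had 414, 229 and 325 CPM in Yap1 WT and 295, 226 and 144 CPM in Yap1 shRNA, against 709, 1002 and 668 CPM in GFP. A row named NEWGENE_621351 (chromosome 4, 29529504 to 29565272, plus strand), which the deposited table also describes as this collagen, had 5908, 4503 and 5094 CPM in Yap1 WT and 3112, 3229 and 3023 CPM in Yap1 shRNA, against 7501, 6586 and 7070 CPM in GFP. The Col1a2 row thus held 4.56% to 13.2% of the reads of both. In all 9 libraries the fractional counts of the pair summed to a whole number, to within 0.015 reads.

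The split changed the values for Col1a2 by more than 1.5 times. Its row alone had a log2 fold change of -1.30 ± 0.24 in Yap1 WT and -1.84 ± 0.25 in Yap1 shRNA against GFP. With both rows summed, a choice made after seeing the data, the values were -0.51 ± 0.09 (adjusted p = 0.000215) and -1.23 ± 0.09 (adjusted p = 3.24e-08). Yap1 WT against Yap1 shRNA was 0.54 ± 0.25 and not called for the row alone (adjusted p = 0.0718), and 0.72 ± 0.09 for the sum (adjusted p = 1.4e-05). The row alone was called without Yap1 WT replicate 2 (0.74) or Yap1 shRNA replicate 1 (0.80). Type I collagen holds more Col1a1 than Col1a2 chains. The Col1a1 to Col1a2 ratio in TPM was 1.70 ± 0.0315 in Yap1 WT and 1.71 ± 0.0607 in Yap1 shRNA, against 1.42 ± 0.0257 in GFP with both rows, and 25.1, 23.6 and 12.4 in that order with the Col1a2 row alone (n = 3).

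**Figure D2:**
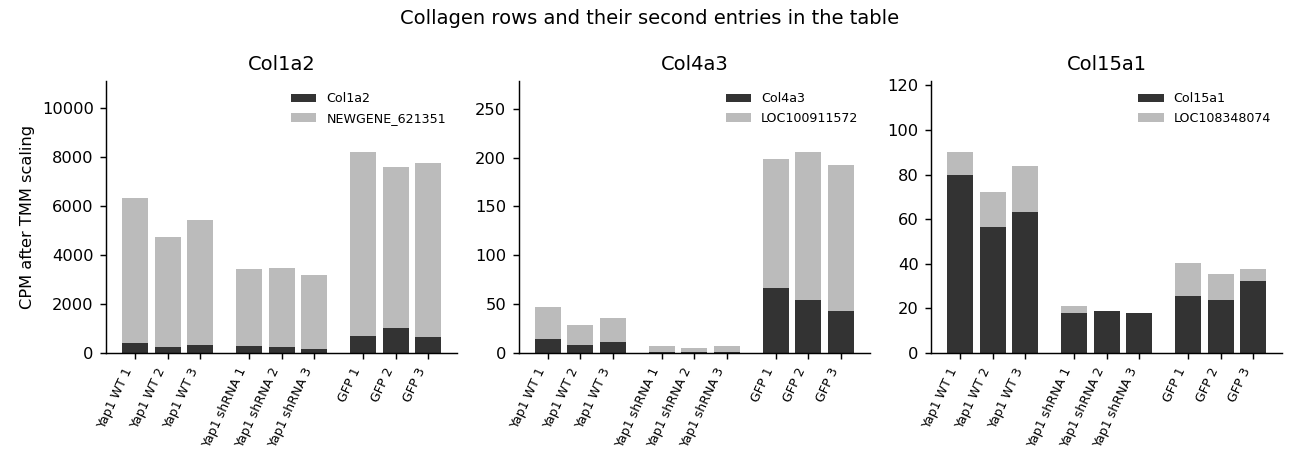
CPM in each of the 9 libraries for the row that carries the collagen symbol (dark) and for its second entry in the table (pale, stacked on it), for Col1a2, Col4a3 and Col15a1. Most Col1a2 reads lie on NEWGENE_621351 in every library, and the stacked Col1a2 bars stand at 4732 to 6322 in Yap1 WT, 3167 to 3455 in Yap1 shRNA and 7588 to 8209 in GFP.

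The network collagens were lower in both Yap1 groups. Of 8 tested chains, 7 were lower in Yap1 WT than in GFP (median log2 fold change -0.88) and all 8 were lower in Yap1 shRNA than in GFP (median -2.66), with none higher in either. Over all tested genes, 31.8% were lower and 63.8% called in Yap1 WT, and 39.1% were lower and 78.3% called in Yap1 shRNA. In Yap1 shRNA 5 of the 8 were at least 4-fold lower than in GFP, and in Yap1 WT 3 were. Col4a3, Col4a4, Col4a6 and Col8a2 lacked 10 reads in some Yap1 shRNA library. Of these, Col4a3, Col4a4 and Col4a6 passed the read filter through Yap1 WT and GFP. Col8a2 also met it in Yap1 shRNA, as the filter scales its minimum to library size. Among the 5 network chains that averaged at least 20 CPM, 4 were lower in Yap1 WT (median -0.52) and 5 in Yap1 shRNA (median -0.88), and 2 were at least 4-fold lower in Yap1 shRNA. Col4a3, which is among these 2, reached that average through GFP. It averaged 54.7 CPM there, against 11.3 CPM in Yap1 WT and 1.19 CPM in Yap1 shRNA. Between Yap1 WT and Yap1 shRNA, 7 of the 8 were higher, none was lower and Col4a1 was not called. There 31.2% of all tested genes were higher and 62.5% called.

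Type IV chains are encoded by 3 pairs of neighbouring genes that are read away from each other. RefSeq (build GRCr8) places the starts of Col4a1 and Col4a2 76 bases apart, those of Col4a3 and Col4a4 412 bases apart, and those of Col4a5 and Col4a6 1414 bases apart. The sequence between the first pair is shown whole because both genes start at its ends, and the 250 bases before Col4a3 because that gene fell furthest of the 34 tested collagens in Yap1 shRNA. Both are on the plus strand of GRCr8, the first at chr16:84885521-84885596 and the second at chr9:91323740-91323989. Capitals mark the GC box, GGGCGG or its reverse complement.
Col4a1/Col4a2: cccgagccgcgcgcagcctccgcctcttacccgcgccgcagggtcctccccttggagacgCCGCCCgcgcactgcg
Col4a3: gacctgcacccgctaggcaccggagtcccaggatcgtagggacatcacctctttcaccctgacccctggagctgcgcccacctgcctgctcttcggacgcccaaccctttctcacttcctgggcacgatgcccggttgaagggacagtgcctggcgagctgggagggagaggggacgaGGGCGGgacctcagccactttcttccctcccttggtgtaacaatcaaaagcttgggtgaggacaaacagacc

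Col4a1 and Col4a2 form the type IV molecule common to nearly all basement membranes, and they were the network chains with the highest levels. Col4a1 had 4295, 3300 and 3704 CPM in Yap1 WT and 3843, 3634 and 3395 CPM in Yap1 shRNA, against 5809, 5156 and 5239 CPM in GFP. Both Yap1 groups lay below GFP (log2 fold change -0.52 ± 0.09, adjusted p = 0.000212, and -0.58 ± 0.09, adjusted p = 5.32e-05) and overlapped each other (0.06 ± 0.09, adjusted p = 0.607). Col4a2 had 3664, 2882 and 3214 CPM in Yap1 WT and 2793, 2644 and 2437 CPM in Yap1 shRNA, against 4354, 3870 and 3952 CPM in GFP. Its groups did not overlap, with a log2 fold change of -0.32 ± 0.09 in Yap1 WT and -0.63 ± 0.09 in Yap1 shRNA. The Yap1 WT call for Col4a2 was lost with library size as the only scaling (-0.19) and on TPM (-0.16). The Col4a1 to Col4a2 ratio in TPM was 1.14 ± 0.0139 in Yap1 WT and 1.36 ± 0.0103 in Yap1 shRNA, against 1.31 ± 0.0044 in GFP (SD, n = 3).

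Col4a3 and Col4a4, with Col4a5, make the type IV molecule best known from the kidney filter and the lung, and both fell far. Col4a3 had 14.7, 8.12 and 10.9 CPM in Yap1 WT and 1.28, 0.843 and 1.45 CPM in Yap1 shRNA, against 66.7, 54.3 and 43.0 CPM in GFP. Every Yap1 WT library lay below every GFP library, and every Yap1 shRNA library lay lower still. The log2 fold change was -2.28 ± 0.18 in Yap1 WT (adjusted p = 2.78e-07) and -5.50 ± 0.31 in Yap1 shRNA (adjusted p = 3.01e-09), which left 20.6% and 2.21% of the GFP level. Col4a3 also has a second entry, LOC100911572, described as an alpha-3(IV) chain-like gene, and the sum of both gave -2.42 ± 0.12 and -4.93 ± 0.17. Between Yap1 WT and Yap1 shRNA the log2 fold change was 3.23 for the Col4a3 row and 2.51 for the sum. Col4a4 averaged 3.12 ± 0.916 CPM in Yap1 WT and 0.648 ± 0.421 CPM in Yap1 shRNA, against 13.6 ± 2.26 CPM in GFP. Its log2 fold change was -2.12 ± 0.22 in Yap1 WT and -4.36 ± 0.34 in Yap1 shRNA, the last on 2 to 7 reads a library. Without Yap1 shRNA replicate 3, which held 7 of those reads, it was -5.01 against GFP, and Yap1 WT against Yap1 shRNA was 2.90 in place of 2.24.

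Col4a5 and Col4a6, the X-linked pair, lay between. Col4a5 had 246, 185 and 206 CPM in Yap1 WT and 85.7, 86.8 and 78.4 CPM in Yap1 shRNA, against 405, 388 and 350 CPM in GFP. Its 3 groups were apart, at a log2 fold change of -0.84 ± 0.09 in Yap1 WT (adjusted p = 3.42e-06) and -2.19 ± 0.10 in Yap1 shRNA (adjusted p = 3.86e-10). Col4a6 averaged 7.09 ± 0.535 CPM in Yap1 WT and 1.51 ± 0.623 CPM in Yap1 shRNA, against 13.4 ± 0.692 CPM in GFP. It fell by 0.91 ± 0.14 in Yap1 WT and by 3.13 ± 0.21 in Yap1 shRNA on the log2 scale. The Col4a5 to Col4a1 ratio in TPM was 0.0565 ± 0.000867 in Yap1 WT and 0.0232 ± 0.000804 in Yap1 shRNA, against 0.0707 ± 0.00429 in GFP.

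**Figure D3:**
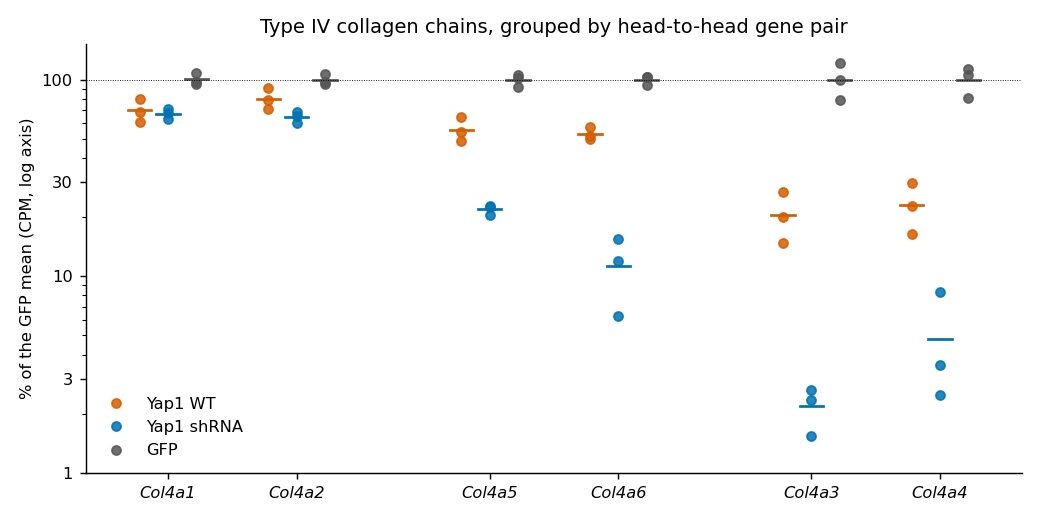
Level of the 6 type IV chains in each library as a percentage of the GFP mean (y axis, log scale), with bars at the group means. In Yap1 shRNA, Col4a1 lies at 62.9% to 71.2% of the GFP mean, while Col4a5 lies near 22% and Col4a3 near 2.21%.

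Type VIII collagen forms hexagonal lattices and is known from the membrane under the corneal endothelium and from vessel walls. Col8a1 had 203, 143 and 146 CPM in Yap1 WT and 137, 105 and 92.7 CPM in Yap1 shRNA, against 230, 198 and 189 CPM in GFP. Yap1 WT overlapped GFP through its replicate 1, and its log2 fold change of -0.33 ± 0.14 was not called (adjusted p = 0.0591) but was called without that library (-0.51, adjusted p = 0.00248) or without Yap1 shRNA replicate 1 or 3 (-0.33 each, adjusted p = 0.033 and 0.0484). Yap1 shRNA was lower than GFP (-0.88 ± 0.15, adjusted p = 0.000117). Col8a2, its partner chain, averaged 2.67 ± 0.399 CPM in Yap1 WT and 1.03 ± 0.086 CPM in Yap1 shRNA, against 18.2 ± 1.39 CPM in GFP. With a log2 fold change of -2.76 ± 0.14 (adjusted p = 3.28e-09), Col8a2 had the widest fall of any tested collagen in Yap1 WT, and in Yap1 shRNA it was -4.12 ± 0.19. Col10a1, known from growth plate cartilage, had 8 reads in Yap1 WT, 2 in Yap1 shRNA and 9 in GFP and was not tested.

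The other types were mixed. Of 16 tested chains, 7 were lower and 3 were higher in Yap1 WT than in GFP (median log2 fold change -0.27), and 11 were lower and 3 were higher in Yap1 shRNA (median -0.98). Over all tested genes, 31.8% were lower and 63.8% called in Yap1 WT, and 39.1% were lower and 78.3% called in Yap1 shRNA. In Yap1 WT the share of these chains called is near that of all genes. Between Yap1 WT and Yap1 shRNA, 8 were higher and 3 were lower (median 0.49), where 31.2% of all tested genes were higher and 62.5% called. All the collagens that rose in any comparison with GFP were in this class.

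Type VI collagen forms beaded microfilaments close to cells. Col6a1 had 629, 411 and 510 CPM in Yap1 WT and 448, 462 and 416 CPM in Yap1 shRNA, against 886, 821 and 822 CPM in GFP. Col6a2 had 721, 500 and 615 CPM in Yap1 WT and 446, 464 and 421 CPM in Yap1 shRNA, against 938, 851 and 907 CPM in GFP. Both chains lay below GFP in every Yap1 WT and Yap1 shRNA library, at log2 fold changes of -0.71 and -0.93 for Col6a1 and of -0.55 and -1.02 for Col6a2. Yap1 WT against Yap1 shRNA was not called for Col6a1 (0.23 ± 0.12, adjusted p = 0.105) but was without Yap1 WT replicate 2 (0.37, adjusted p = 0.00192), and was 0.46 ± 0.10 for Col6a2. Col6a3, the largest chain, had 258, 142 and 193 CPM in Yap1 WT and 86.5, 86.1 and 69.5 CPM in Yap1 shRNA, against 301, 225 and 245 CPM in GFP. Here Yap1 WT overlapped GFP (-0.38 ± 0.17, adjusted p = 0.0653) and was called lower without Yap1 WT replicate 1 (-0.61, adjusted p = 0.00163) or without GFP replicate 2 (-0.46, adjusted p = 0.0496). Yap1 shRNA was lower than GFP (-1.67 ± 0.18, adjusted p = 2.09e-06).

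Fibril-associated collagens coat fibrils and link them to other matrix. Col14a1, found where fibrils bear load, had 774, 466 and 569 CPM in Yap1 WT and 118, 119 and 109 CPM in Yap1 shRNA, against 1483, 1394 and 1360 CPM in GFP. The groups were well apart, and the log2 fold change was -1.23 ± 0.13 in Yap1 WT (adjusted p = 3.96e-06) and -3.61 ± 0.15 in Yap1 shRNA (adjusted p = 1.91e-10). Col16a1 had 98.9, 73.4 and 82.7 CPM in Yap1 WT and 41.5, 42.1 and 39.3 CPM in Yap1 shRNA, against 108, 95 and 103 CPM in GFP. Yap1 WT overlapped GFP, and its call (-0.26 ± 0.09, adjusted p = 0.0209) was lost when Yap1 WT replicate 2 (-0.17) or 3 (-0.24) or GFP replicate 1 (-0.22) or 3 (-0.25) was left out, with library size as the only scaling (-0.13) and on TPM (-0.10). In Yap1 shRNA Col16a1 was lower (-1.32 ± 0.10).

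Col12a1, a close relative of Col14a1, moved the other way. It had 300, 273 and 283 CPM in Yap1 WT and 593, 427 and 360 CPM in Yap1 shRNA, against 281, 229 and 213 CPM in GFP. Every Yap1 shRNA library was above every library of the other groups, replicate 1 most of all, and the log2 fold change was 0.93 ± 0.15 against GFP (adjusted p = 6.49e-05). Yap1 WT overlapped GFP and was not called (0.24 ± 0.15, adjusted p = 0.162), but some alternatives called it higher. These were leaving out Yap1 shRNA replicate 1 (0.24, adjusted p = 0.0425), library size alone (0.38) and a fit of Yap1 WT and GFP libraries only (0.24). A replicate block (0.26) and a length correction (0.27) called it too, as did the authors' table (q = 0.0177). The remaining alternatives left it uncalled.

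Of the scarcer fibril-associated chains, Col9a3, known from cartilage, averaged 4.91 ± 1.3 CPM in Yap1 WT and 0.602 ± 0.264 CPM in Yap1 shRNA, against 9.85 ± 0.288 CPM in GFP. It was lower in both (log2 fold change -1.0 and -4.02), the last on 2 to 5 reads a library and at -2.15 on TPM. Col20a1 averaged 5.01 ± 0.942 CPM in Yap1 WT and 10.3 ± 0.136 CPM in Yap1 shRNA, against 2.68 ± 0.47 CPM in GFP, and was higher in both (0.90 ± 0.19 and 1.93 ± 0.19). Col19a1 averaged 0.591 ± 0.142 CPM in Yap1 WT and 0.863 ± 0.389 CPM in Yap1 shRNA, against 2.09 ± 0.243 CPM in GFP, and was lower in both (-1.80 and -1.26), on 3 to 8 reads a library in the Yap1 groups. On TPM neither fall was called (-0.20, adjusted p = 0.0508, and -0.15, adjusted p = 0.112). Col22a1 was not called in any comparison.

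Col7a1, the anchoring fibril chain that ties epithelial basement membranes to the tissue below, rose most of the 34 tested collagen rows. It averaged 16.2 ± 1.92 CPM in Yap1 WT and 21.7 ± 1.18 CPM in Yap1 shRNA, against 3.56 ± 0.709 CPM in GFP. Both Yap1 groups were above every GFP library, at log2 fold changes of 2.19 ± 0.14 (adjusted p = 3.76e-08) and 2.60 ± 0.15 (adjusted p = 2.73e-09). The difference between Yap1 WT and Yap1 shRNA, -0.42 ± 0.13 (adjusted p = 0.012), was lost with library size as the only scaling (-0.30). The 250 bases before its annotated start are shown because it rose in both groups (RefSeq, GRCr8, chr8:118483114-118483363, plus strand), with the GC box in capitals.
Col7a1: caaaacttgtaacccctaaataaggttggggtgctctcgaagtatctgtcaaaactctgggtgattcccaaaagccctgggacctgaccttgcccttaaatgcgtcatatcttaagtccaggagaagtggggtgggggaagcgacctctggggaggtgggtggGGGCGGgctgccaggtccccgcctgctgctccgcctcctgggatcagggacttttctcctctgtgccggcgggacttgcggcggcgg

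The multiplexins, types XV and XVIII, sit in basement membranes and carry sulfated sugar chains, and type XVIII releases endostatin. Col15a1 had 80.0, 56.5 and 63.3 CPM in Yap1 WT and 18.0, 18.9 and 17.9 CPM in Yap1 shRNA, against 25.7, 23.9 and 32.3 CPM in GFP. Yap1 WT lay above GFP and Yap1 shRNA lay below it without overlap, at log2 fold changes of 1.29 ± 0.13 (adjusted p = 1.61e-06) and -0.58 ± 0.16 (adjusted p = 0.00422). It was the single tested collagen called in opposite directions in the 2 Yap1 groups, and Yap1 WT exceeded Yap1 shRNA by 1.87 ± 0.15 on the log2 scale (adjusted p = 2.63e-07). With its second entry LOC108348074 added, the values were 1.12 ± 0.08 and -0.97 ± 0.11 against GFP. On TPM the fall in Yap1 shRNA was not called (-0.31, adjusted p = 0.0631). Col18a1 had 487, 393 and 447 CPM in Yap1 WT and 167, 175 and 170 CPM in Yap1 shRNA, against 477, 459 and 457 CPM in GFP. Yap1 WT overlapped GFP (-0.07 ± 0.07, adjusted p = 0.384), and Yap1 shRNA was lower (-1.45 ± 0.07, adjusted p = 8.26e-10).

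Transmembrane collagens were scarce. Col13a1, found at the neuromuscular junction, averaged 0.704 ± 0.259 CPM in Yap1 WT and 0.486 ± 0.151 CPM in Yap1 shRNA, against 2.05 ± 0.092 CPM in GFP, and was lower in both (log2 fold change -1.53 ± 0.29 and -2.04 ± 0.38). Both Col13a1 falls rest on few reads. Yap1 WT libraries held 9, 5 and 11, Yap1 shRNA libraries 4, 2 and 3, and GFP libraries 28, 31 and 31. Col13a1 thus passed the read filter through GFP alone, the group where its level was highest. On TPM its log2 fold changes shrank to -0.41 and -0.52, though both stayed called. Col17a1, the hemidesmosome collagen of epithelia, was lower in Yap1 shRNA (-0.82 ± 0.23, adjusted p = 0.00541). That call was lost after thinning to equal depth (-0.63, adjusted p = 0.0543) and on TPM (-0.26, adjusted p = 0.0537). Its higher level in Yap1 WT than in Yap1 shRNA (0.66 ± 0.24, adjusted p = 0.0264) was lost without Yap1 WT replicate 1 (0.61) or 3 (0.57) and without Yap1 shRNA replicate 1 (0.60) or 3 (0.52). The call was also lost with DESeq2 (0.66, adjusted p = 0.0693) and on TPM (0.26, adjusted p = 0.0647). Outside the transmembrane types, the type VI chain Col6a6 was called in no comparison.

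Other types with too few reads for a test were Col6a5, Col9a1, Col9a2, Col23a1, Col26a1 and Col28a1. Col9a2 had 5 reads in Yap1 WT, 7 in Yap1 shRNA and 28 in GFP. Col28a1 had 11 in Yap1 WT, 3 in Yap1 shRNA and 15 in GFP. Col9a1 had 1 read in Yap1 WT, 0 in Yap1 shRNA and 2 in GFP, and a count of 0 allows up to 3. Col6a5 and Col26a1 had 14.01 and 14 reads in all 9 libraries. Col23a1 had 7.71 reads in all, while its second entry LOC103693323 had 36.26 in Yap1 WT and 14.65 in Yap1 shRNA, against 8.38 in GFP. On its own LOC103693323 was higher in Yap1 WT (2.41 ± 0.56, adjusted p = 0.00226) and in Yap1 shRNA (2.09 ± 0.67, adjusted p = 0.0122) than in GFP. Summed with its second entry, Col23a1 was higher in Yap1 WT (2.50 ± 0.58, adjusted p = 0.00216) and in Yap1 shRNA (1.93 ± 0.72, adjusted p = 0.0258) than in GFP. These values rest on few reads. LOC103693323 had 9.43, 15.83 and 11 reads in Yap1 WT and 7, 3 and 4.65 in Yap1 shRNA, against 6.38, 1 and 1 in GFP. Passing the read filter thus rested on the Yap1 groups, where the row and the sum were higher.

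**Figure D4:**
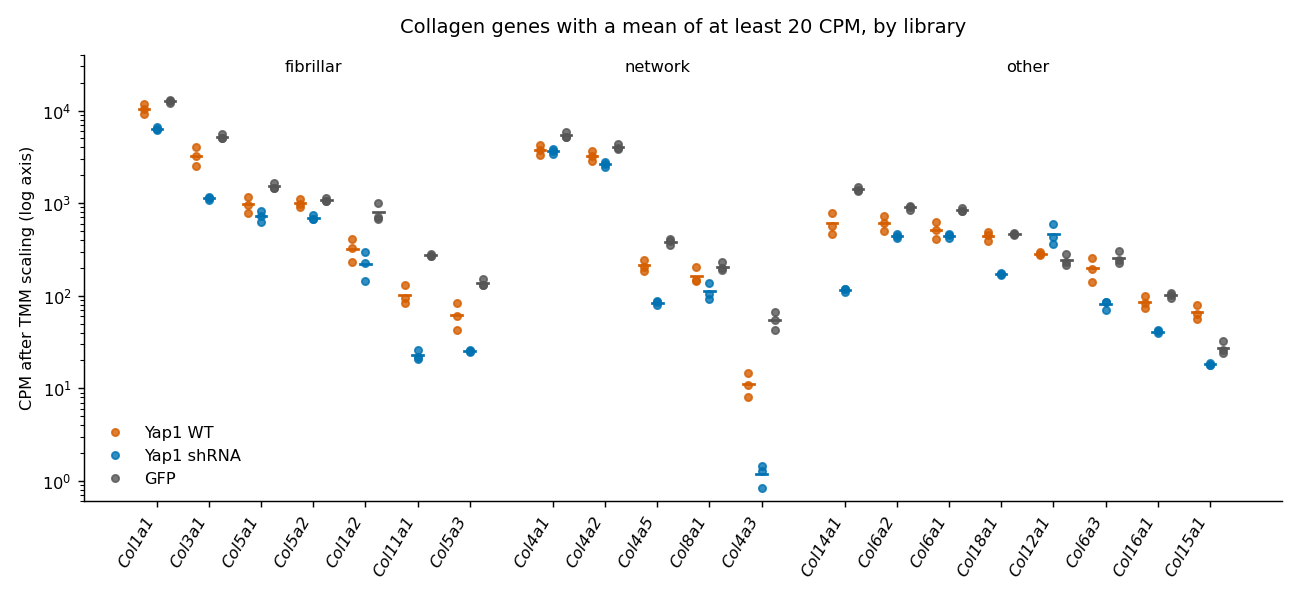
CPM of the 20 collagen genes that averaged at least 20 CPM (y axis, log scale), with a point for each library and a bar at each group mean, Yap1 WT left, Yap1 shRNA in the middle and GFP right. Yap1 shRNA libraries lie below GFP libraries for 19 of the 20 genes, and Col12a1 is the exception.

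Collagen reads as a whole took a smaller share of the libraries in the Yap1 groups. The 42 rows held 2.79% ± 0.398 of assigned reads in Yap1 WT and 1.71% ± 0.0938 in Yap1 shRNA, against 3.47% ± 0.182 in GFP (SD, n = 3 each). With the 4 second entries added the shares were 3.35% ± 0.468, 2.02% ± 0.101 and 4.17% ± 0.225 in the same order. The Yap1 shRNA libraries, 1.61% to 1.79%, lay apart from the rest, and the highest Yap1 WT library (3.21%) lay below the lowest GFP library (3.35%).

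The make-up of this smaller pool differed in Yap1 shRNA. Fibrillar chains, with second entries, made up 68.8% ± 0.182 of collagen TPM in Yap1 WT and 61.7% ± 1.05 in Yap1 shRNA, against 67.6% ± 0.366 in GFP. Network chains made up 21.1% ± 0.469 in Yap1 WT and 28.4% ± 0.977 in Yap1 shRNA, against 21.2% ± 0.379 in GFP. Col4a1 alone was 10.2% ± 0.203 in Yap1 WT and 15.4% ± 0.439 in Yap1 shRNA, against 10.6% ± 0.192 in GFP, while Col3a1 was 12.3% ± 0.926, 6.73% ± 0.105 and 14.4% ± 0.187. The larger network share in Yap1 shRNA stood beside lower levels of every tested network chain than in GFP, with log2 fold changes against GFP of -0.58 for Col4a1 and -0.63 for Col4a2, beside -0.97 for Col1a1 and -2.21 for Col3a1.

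**Figure D5:**
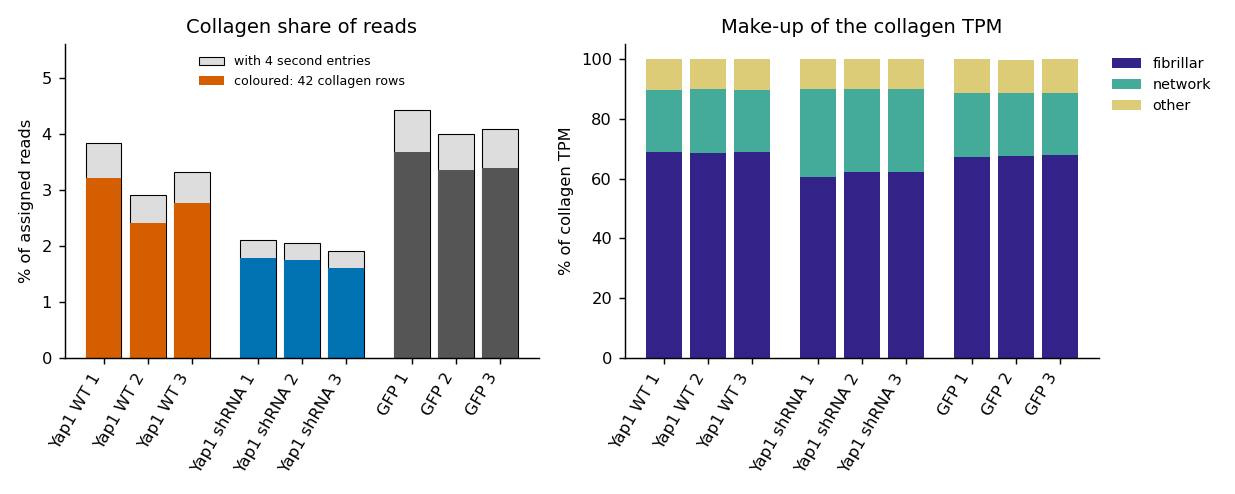
Left, percentage of assigned reads on the 42 collagen rows in each library (coloured bars), with the part added by 4 second entries (pale); right, the percentage of collagen TPM from fibrillar, network and other chains in each library, second entries included. The share of reads is lowest in the 3 Yap1 shRNA libraries, where the network part is 27.7% to 29.5% of collagen TPM.

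Within Yap1 WT, the libraries stood apart for most chains. Yap1 WT replicate 1 had the highest of the 3 values for 27 of the 34 tested chains and replicate 2 the lowest for 27. Replicate 1 had 558 CPM of Yap1 and replicate 2 had 811 CPM. In Yap1 WT against GFP, 24 chains were called lower without replicate 1 and 20 without replicate 2, with 3 higher in each case.

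Genes that build and trim collagen were called in both directions. Of 20 tested genes for collagen modification, folding and export, 13 were lower and 2 were higher in Yap1 WT than in GFP, and 18 were lower and 2 were higher in Yap1 shRNA (median log2 fold change -0.22 and -0.60). Over all tested genes 31.8% were lower and 63.8% called in Yap1 WT, and 39.1% were lower and 78.3% called in Yap1 shRNA. Serpinh1, the collagen chaperone HSP47, averaged 1911 ± 57.2 CPM in Yap1 WT and 1568 ± 63.8 CPM in Yap1 shRNA, against 2206 ± 87.3 CPM in GFP. P4ha2, a catalytic subunit of the prolyl 4-hydroxylase that makes the helix stable, went the other way. It had 223, 243 and 233 CPM in Yap1 WT and 351, 356 and 356 CPM in Yap1 shRNA, against 119, 117 and 114 CPM in GFP. Both Yap1 groups were above GFP without overlap (log2 fold change 1.0, adjusted p = 3.53e-09, and 1.60, adjusted p = 2.63e-11). P4ha3, another such subunit, was lower in both groups (-1.0 and -0.93), as was the galactosyltransferase Colgalt1 (-0.71 and -1.08). Between Yap1 WT and Yap1 shRNA, 13 of the 20 were higher and 2 were lower, among them P4ha2 at -0.60 and the lysyl hydroxylase Plod2 at 0.70. There 31.2% of all tested genes were higher, 31.3% lower and 62.5% called.

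Of 13 tested genes for propeptide cleavage and crosslinking, 8 were lower and 3 were higher in Yap1 WT than in GFP, and 7 were lower and 3 were higher in Yap1 shRNA (median log2 fold change -0.29 and -0.40). The share called in Yap1 shRNA, 10 of 13, was near the 78.3% of all genes, and in Yap1 WT 63.8% of all genes were called. By direction, 31.8% of all genes were lower in Yap1 WT and 39.1% in Yap1 shRNA. Lox, the lysyl oxidase that crosslinks fibrils, had 274, 255 and 257 CPM in Yap1 WT and 110, 115 and 104 CPM in Yap1 shRNA, against 366, 332 and 332 CPM in GFP. The groups did not overlap, with a log2 fold change of -0.39 in Yap1 WT and -1.65 in Yap1 shRNA (adjusted p = 8.64e-11). Pcolce, an enhancer of the proteinase that removes the C-propeptide, was lower in both (-0.43 and -1.31), as were Loxl1 (-0.84 and -1.29) and the N-proteinase Adamts2 (-0.66 and -1.19). Another N-proteinase, Adamts14, was lower in both (-1.21 and -1.28).

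Among 7 collagen receptors, 2 were higher and 3 were lower in Yap1 WT than in GFP, and 2 were higher and 5 were lower in Yap1 shRNA (median log2 fold change -0.11 and -0.77). With 7 genes, the number called in Yap1 WT lies close to the 63.8% of all genes. In Yap1 shRNA all 7 were called, where 78.3% of all genes were. Cd44 rose in both (log2 fold change 1.72 and 1.88), and so did the integrin chain Itga2 (0.98 and 2.46). The integrin chain Itga11 fell in both (-1.19 and -1.51), as did the discoidin receptors Ddr1 (-0.37 and -0.77) and Ddr2 (-0.34 and -1.10). Of 5 tested genes for collagen degradation, 3 were higher and 1 was lower in Yap1 WT, and 2 were higher and 3 were lower in Yap1 shRNA, beside the same shares of all genes. The gelatinase Mmp2 averaged 1222 ± 19.7 CPM in Yap1 WT and 566 ± 36.6 CPM in Yap1 shRNA, against 744 ± 21.7 CPM in GFP, so it was called in opposite directions (0.72 and -0.39). The gelatinase Mmp9 averaged 6.58 ± 1.6 CPM in Yap1 WT and 26.9 ± 3.33 CPM in Yap1 shRNA, against 1.34 ± 0.191 CPM in GFP. The collagenase Mmp13 had 1.41, 2.22 and 1.54 CPM in Yap1 WT and 1.28, 0.337 and 1.29 CPM in Yap1 shRNA, and 0 reads in GFP, which allows up to 3. The membrane collagenase Mmp14 was lower in both (-0.30 and -1.13).

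Of 12 other basement membrane genes, 7 were lower and 2 were higher in Yap1 WT than in GFP, and 9 were lower and 1 was higher in Yap1 shRNA (median log2 fold change -0.22 and -0.58). Of all genes, 63.8% were called in Yap1 WT and 78.3% in Yap1 shRNA, so the counts called in either direction are near the background. By direction, 31.8% and 39.1% of all genes were called lower. Lama2, the laminin chain of muscle basement membranes, had 238, 161 and 194 CPM in Yap1 WT and 70.7, 77.4 and 68.7 CPM in Yap1 shRNA, against 512, 486 and 451 CPM in GFP. The groups were apart, as for most type IV chains, with a log2 fold change of -1.29 in Yap1 WT and -2.74 in Yap1 shRNA. Lamb2 followed at -1.12 and -2.27. Nid1 and Nid2, the nidogens that join laminin to type IV collagen, were lower in both groups, at -0.86 in Yap1 WT and -0.35 in Yap1 shRNA for Nid1 and at -0.69 and -0.45 for Nid2. The laminin gamma chain Lamc1 was lower in both too (-0.23, adjusted p = 0.0169, and -0.99).

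Markers of other cell types were followed beside the collagens, where 63.8% of all genes were called in Yap1 WT and 78.3% in Yap1 shRNA. Of 8 fibroblast markers outside the collagens, 3 were higher (Dcn, Lum and Pdgfra) and 3 were lower (Thy1, Tcf21 and Dpt) in Yap1 WT than in GFP. In Yap1 shRNA 6 were lower and 1 was higher, with Tcf21 at a log2 fold change of -2.97, Pdgfra at -2.30, Postn at -1.28 and Dcn at 1.80. Of 6 smooth muscle and pericyte markers, 5 were lower in Yap1 WT and 6 in Yap1 shRNA, and their sum was 2014 to 2575 CPM in Yap1 WT and 1954 to 2081 CPM in Yap1 shRNA, against 3837 to 3970 CPM in GFP. Of 5 epicardial markers, 2 were lower and 2 higher in each Yap1 group, and Upk3b had 53, 40 and 46 reads in Yap1 WT and 1, 0 and 0 reads in Yap1 shRNA, against 189, 190 and 205 reads in GFP. Of 6 endothelial markers, 3 were higher in Yap1 WT, and 5 were higher and 1 lower in Yap1 shRNA, at a sum of 53.9 to 58.1 CPM in Yap1 WT and 49.7 to 54.0 CPM in Yap1 shRNA, against 34.7 to 37.9 CPM in GFP. Macrophage and neural markers were low (41.8 CPM or less in sum in any library), with 2 of 5 macrophage markers higher and 1 lower in Yap1 WT, and 1 higher and 2 lower in Yap1 shRNA. All 8 cardiomyocyte markers were lower in both. The part that these differences have in the collagen values was not tested.

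Promoter windows, the 250 bases before an annotated start, were available from RefSeq (GRCr8) for 34 of the 42 genes, in 37 windows, and 4 short motifs were searched on both strands. The TEAD core CATTCC, the binding motif of the partners through which YAP1 acts, was in 16.2% of the collagen windows and in 12.1% of all 33469 windows. The 6 collagen windows with it belonged to 5 of the 34 genes, as Col24a1 has several, partly overlapping windows. These genes were Col11a2, Col17a1, Col24a1, Col4a6 and Col6a6, and of these Col4a6 was called in every comparison. The CCAAT box was in 29.7% of collagen and 34.0% of all windows, the TATA box TATAAA in 10.8% and 12.9%, and the GC box GGGCGG in 54.1% and 30.5%. Genes without a window were Col12a1, Col14a1, Col1a1, Col22a1, Col2a1, Col3a1, Col6a2 and Col9a3. The sequences printed above for Col4a1 and Col4a2, Col4a3 and Col7a1 each held 1 GC box and no CATTCC, and they show only which letters lie in these windows.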

How the data were processed

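Messenger RNA was enriched with oligo(dT) and sequenced on a BGISEQ-500, per the labels' protocols, and the strand of the kit is not stated. The submitters' processing notes name HISAT2, Bowtie2, RSEM 1.3.1, DESeq2 1.4.5 and build rn6, with no role given for any of them. The authors deposited expected counts per gene, TPM scaled within each library, and, per the file headers, log2 fold changes and q-values from DESeq2. A second deposited table repeats these values and was not used.

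Expected counts were rounded and a single edgeR 4.0.16 model (under R 4.3.3) took in all 9 libraries, scaled by TMM. It held the 13708 genes that passed filterByExpr, whose minimum of 10 reads applies at the median library size. Quasi-likelihood F tests were two-sided, Benjamini-Hochberg adjusted and called at 0.05. TMM factors were 1.05 to 1.07 in Yap1 WT, 0.972 to 0.985 in Yap1 shRNA and 0.962 to 0.97 in GFP, and the biological coefficient of variation was 7.18%. SE is the log2 fold change over the square root of F. Yap1 shRNA libraries hold fewer reads, so their low genes carry more counting error. The fit was tested on simulated counts.

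Alternatives were RLE, library size alone, DESeq2 1.42.0, limma-trend 3.58.1 on log2(TPM + 1), other filters, thinning, a length correction, a replicate block and leaving out each library. The members, gene lists and tests were chosen with earlier results of these data known. Chains averaging at least 20 CPM have a value per library, and up to 4 called partners with the lowest p are named per list and comparison, not all of them in the text. Crtap had no row, and rows of near-identical genes are uncertain. Protein features that had been planned were not used here, as no protein table was given. Reads of overlapping genes on opposite strands could not be told apart. The values of a gene in the basement membrane list are not reported here.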

Additional observations from a re-analysis of the deposited data

How the results depend on the processing

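The counts of collagens called lower or higher stayed within 1.5 times under every alternative run. Lower in Yap1 WT than in GFP were 17 to 24, lower in Yap1 shRNA than in GFP 23 to 26, and higher in Yap1 WT than in Yap1 shRNA 20 to 24. With the second entries summed, a choice made after seeing the data, the collagen share of reads was 3.35% in Yap1 WT, 2.02% in Yap1 shRNA and 4.17% in GFP. Library size alone moved the median gene by 0.135 in Yap1 WT against GFP and by 0.115 in Yap1 WT against Yap1 shRNA, and TPM moved it by 0.133 in Yap1 WT and 0.168 in Yap1 shRNA against GFP, on the log2 scale.

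No called value changed sign. Uncalled values did, and the cause was not tested. In Yap1 WT against GFP, library size alone gave 0.01 for Col5a2, 0.09 for Col24a1 and 0.06 for Col18a1, and TPM gave 0.03, 0.06 and 0.09 for these and 0.0005 for Col17a1. Thinning gave 0.15 for Col17a1. Leaving out 1 library at a time gave -0.14 to 0.05 for Col24a1 (above 0 without Yap1 WT replicate 3 or GFP replicate 2), -0.06 to 0.52 for Col22a1 (below 0 without Yap1 WT replicate 1, and -0.02 without GFP replicate 3) and -0.14 to 0.01 for Col18a1 (Yap1 WT replicate 2). In Yap1 shRNA against GFP, Col27a1 was 0.13 on TPM, 0.12 after thinning and -0.09 to 0.01 with 1 library left out (above 0 without Yap1 shRNA replicate 2). In Yap1 WT against Yap1 shRNA, TPM gave -0.001 for Col11a2 and -0.002 for Col4a1, Col11a2 ranged from -0.13 to 0.35 with 1 library left out (-0.07 without Yap1 WT replicate 2, lowest without Yap1 shRNA replicate 3), and Col4a1 from -0.04 to 0.14 (lowest without Yap1 WT replicate 1).

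The replicate numbers did not pair the samples (correlations of same-numbered deviations -0.03 to 0.09). With the replicate number as a block, 97 of 102 single-gene results kept their direction and call and 5 became called, namely Col8a1 (log2 fold change -0.34), Col5a2 (-0.13), Col6a3 (-0.40) and Col12a1 (0.26) in Yap1 WT against GFP and Col1a2 (0.57) in Yap1 WT against Yap1 shRNA. Too few reads left 8 of the 42 chains untested. After thinning to equal depth only 93 of the 102 results remained, as some chains no longer passed the read filter. Of those 93, 90 kept their direction and call. Adding 1 to TPM shrinks the fold changes of low chains.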
